A study of Mus musculus with 117 samples.

Results

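Rpgrip1, Tmem14c, Spg21, Snhg6, AI506816, Gramd3, D17H6S56E-5 and Gfer are 8 genes whose array signal separated NOD-scid from B6-scid mice in every gland measured. Each had a probe set called between the strains, in 1 direction, in all 4 strain comparisons. Other genes met this rule too, so it does not by itself define the set. A probe set is a group of short oligonucleotide probes read together as 1 transcript. The 3 array designs held 18 probe sets annotated to these genes alone, of 36701 probe sets in all. Of the 18, 8 (1 per gene) met the rule and are called the choosing probe sets, and 10 belong to the same genes but did not.

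All mice were female and carried the scid mutation of Prkdc, which leaves both strains without mature T and B cells. The NOD-scid strain was NOD.CB17-Prkdc scid/J, on a background prone to autoimmunity, and the B6-scid strain was labelled B6.CB17-Prkdc scid/SzJ. Pancreas was taken at 6 weeks from 5 mice of each strain, and submandibular gland, freed of sublingual and fat tissue, from 5 of each at 9 weeks and 5 of each at 15 weeks. Lacrimal gland was taken at 15 weeks, from 5 mice of B6-scid and 4 of NOD-scid. RNA of the 39 samples was hybridised to array designs A, B and C (117 arrays). The labels do not say whether the lacrimal and submandibular samples of 15 weeks came from the same mice. These are whole glands, so fewer cells of a type and less RNA per cell cannot be told apart.

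The 8 genes are not known to share a pathway. Rpgrip1 encodes a scaffold of the transition zone of cilia, best known from the connecting cilium of photoreceptors. Tmem14c and Gfer encode mitochondrial proteins, the first a transporter in heme synthesis and the second a sulfhydryl oxidase that drives protein import into the intermembrane space. Spg21 encodes maspardin, an endosomal protein mutated in a hereditary spastic paraplegia, and Gramd3 a protein with a lipid-binding GRAM domain. Snhg6 is the non-coding host transcript of a small nucleolar RNA. AI506816 is named from an expressed sequence and D17H6S56E-5 from a DNA segment of the MHC class III region of chromosome 17. Probes are designed on reference sequence, so a difference in signal between inbred strains can come from the RNA level or from bases that differ under a probe. Further probe sets on other stretches of a transcript show whether its signal differs there too. Probe sequences were not used here, so the 2 sources cannot be told apart for any single probe set.

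RefSeq promoters (250 bases before to 50 after the start, build GRCm38.p6, from C57BL/6J, the background of B6-scid) were matched for 6 of the 8 genes. Of these, 4 are shown: Rpgrip1, whose smallest strain difference was the largest of the 8, Tmem14c, the other gene with a CCAAT motif, AI506816, whose probe sets disagree, and Gfer, the 1 gene higher in NOD-scid mice. They lie at chr14:52110653-52110952, plus strand, chr13:41016000-41016299, plus strand, chr5:23712618-23712917, minus strand and chr17:24696107-24696406, minus strand. They are written 5′ to 3′, with 3 searched motifs in capitals wherever they occur on either strand. These are CCAAT (the CCAAT box), TATAAA (the TATA box) and GGGCGG (the GC box).
Rpgrip1: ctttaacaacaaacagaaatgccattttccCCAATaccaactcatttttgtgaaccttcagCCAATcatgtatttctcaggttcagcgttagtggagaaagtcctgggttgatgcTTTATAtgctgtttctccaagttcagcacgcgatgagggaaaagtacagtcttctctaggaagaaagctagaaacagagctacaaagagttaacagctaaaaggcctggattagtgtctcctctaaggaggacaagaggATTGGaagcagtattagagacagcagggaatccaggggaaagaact
Tmem14c: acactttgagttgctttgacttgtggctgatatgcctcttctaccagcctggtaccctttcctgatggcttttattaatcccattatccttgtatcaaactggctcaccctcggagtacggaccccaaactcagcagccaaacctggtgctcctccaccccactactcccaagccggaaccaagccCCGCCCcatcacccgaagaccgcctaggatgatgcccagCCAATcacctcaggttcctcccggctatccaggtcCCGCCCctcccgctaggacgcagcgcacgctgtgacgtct
AI506816: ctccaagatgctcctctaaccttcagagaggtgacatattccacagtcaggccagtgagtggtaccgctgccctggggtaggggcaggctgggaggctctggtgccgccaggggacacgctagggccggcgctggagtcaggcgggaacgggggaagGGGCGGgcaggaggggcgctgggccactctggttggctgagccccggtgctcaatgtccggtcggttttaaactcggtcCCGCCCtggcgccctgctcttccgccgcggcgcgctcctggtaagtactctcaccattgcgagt
Gfer: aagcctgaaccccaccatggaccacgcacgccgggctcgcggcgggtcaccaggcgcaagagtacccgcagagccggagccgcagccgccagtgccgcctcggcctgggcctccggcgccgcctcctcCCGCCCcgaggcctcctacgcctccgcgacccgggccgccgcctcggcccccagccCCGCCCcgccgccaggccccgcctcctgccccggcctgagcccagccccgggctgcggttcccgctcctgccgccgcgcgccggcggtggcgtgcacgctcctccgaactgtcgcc
The Rpgrip1 promoter held 3 CCAAT and 1 TATAAA motif, no GGGCGG, 3 CpG pairs and 42.7% GC. The Gfer promoter held 2 GGGCGG motifs, 43 CpG pairs and 80.3% GC, and that of AI506816 2 GGGCGG motifs, 21 CpG pairs and 66.3% GC. Tmem14c had 1 CCAAT and 2 GGGCGG motifs. Over all 6, CCAAT was present in 2, TATAAA in 1 and GGGCGG in 4, against 37.4%, 13.6% and 35.7% of 32851 promoters of the same length, in which the medians were 7 CpG pairs and 52.7% GC. The motif GGGCGG was in the promoter of Gfer and in 3 of the 5 others. A match is a description of the letters in this window.

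Levels below are scaled signals, the deposited intensities after each array was set to a 2% trimmed mean of 500. Differences are NOD-scid minus B6-scid of log2(scaled signal + 32) with the standard error (SE) of the limma fit. Adding 32 understates the change where signals are low. A probe set was tested when at least 4 arrays of a fit reached a signal of 100, and called at an adjusted p under 0.05. Values are listed in the order of the replicate numbers, which were not taken to pair samples.

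Lists of gland markers read as labelled for pancreas, where 5 of 5 acinar genes were highest, and for submandibular gland, where 3 of 4 were highest. Of the 5 lacrimal genes, 2 were highest in lacrimal gland and 3 in submandibular gland at 9 weeks. In the submandibular list, Smr2 was highest in pancreas. Summed submandibular markers were 43881 to 101984 in B6-scid lacrimal samples. They were 4041 to 5273 in 3 NOD-scid lacrimal samples and 80110 in NOD-scid replicate 4. This sum was mostly 1 gene, as the lacrimal means were 42445 for Prol1, 3439 for Egf and 142 for Smr2. Klk1b9, also of this list, was lowest in lacrimal gland. Whether the lacrimal samples held submandibular tissue was not tested. Summed lacrimal markers were 465958 and 484964 in B6-scid lacrimal replicates 2 and 3 and 228847 to 248973 in the other 3. Without NOD-scid lacrimal replicate 4 the lacrimal differences of the choosing probe sets lay between -3.37 and 1.37, and without the 2 B6-scid samples between -4.04 and 1.28, against -3.38 and 1.39 with all. Beyond these values, the part of these markers in the lacrimal results was not tested. Summed acinar markers reached 105615 in NOD-scid submandibular replicate 1 of 9 weeks, against at most 14250.3 in the others of its group, and without it the differences at 9 weeks ran from -3.90 to 1.53. T cell markers summed to 1760 to 3163 in pancreas and 307 to 894 in the other glands, and no T cell, B cell or macrophage marker was called between the strains. Of the 26 gland and immune cell markers, 1 was called, Lpo of the lacrimal list. Lpo was higher in NOD-scid mice in submandibular gland at 9 weeks (0.96, SE 0.21, adjusted p = 0.0232 in limma) and in lacrimal gland (0.91, SE 0.19, adjusted p = 0.0495). Mean correlations among replicates by group were 0.908 to 0.949 for design A, 0.756 to 0.875 for B and 0.752 to 0.863 for C. On designs B and C both groups of 9 weeks had the lowest.

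The choice rested on the strain comparisons themselves, so the values of the choosing probe sets are descriptions with no test. In pancreas 8 of 15 tested member probe sets were called (background 0.647% of all probe sets), in submandibular gland 9 of 16 at 9 weeks (1.12%) and 9 of 16 at 15 weeks (0.594%), and in lacrimal gland 9 of 15 (1.19%). Over all arrays, 22 probe sets were called in all 4 comparisons in 1 direction, 0.0864% of the 25450 tested in all 4, and 18 of the 22 were lower in NOD-scid mice. By annotation, 18 of the 22 had 1 symbol and 4 had none or several, and 8 were members. Just inside the threshold lay D17H6S56E-5, with an adjusted p of 0.0495 at 9 weeks, and Gfer, with 0.0467 in pancreas. Next after the smallest difference of the lower members (1.53 in size, D17H6S56E-5) came Agpat5 (1.51), Apobec3 (1.49) and Prdx2 (1.40). The smallest difference of Gfer, 0.81, ranked last of the 22, so size does not define the members either. Ly6e, Fbp1 and Ctsc lay among the members by size but are not among them. Membership depends on the fit. With 1 prior spread over the stacked designs in place of 1 per design, a choice made after seeing the data, 6 of the 8 stayed called in all 4, without D17H6S56E-5 (0.0671 at 9 weeks) and Gfer (0.0949 in pancreas). The same 6 stayed with no filter, and 4 stayed with a pseudocount of 1, when Tmem14c and Gramd3 were lost as well. In 1 fit of 39 samples 7 stayed, without D17H6S56E-5.

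Among the choosing probe sets, 7 were lower in NOD-scid mice and 1, Gfer, was higher. In the order pancreas, submandibular gland at 9 and 15 weeks and lacrimal gland, 0.411%, 0.625%, 0.37% and 0.668% of all probe sets were called lower and 0.237%, 0.492%, 0.224% and 0.524% higher. In each of the 4 comparisons the strains' values did not overlap for any of the 8 (background 3%, 2.1%, 2.83% and 7.09% of probe sets in pancreas, submandibular gland at 9 and 15 weeks and lacrimal gland). Of the 8 probe sets, 6 sit on design A, 1 on B and 1 on C. By name, 2 carry the suffix f, given to probe sets that may match several members of a sequence family, and 1 the suffix r, given where the usual rules of probe selection were relaxed. These suffixes were on 7.65% and 8.13% of the probe sets tested in all 4 comparisons.

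**Figure D1:**
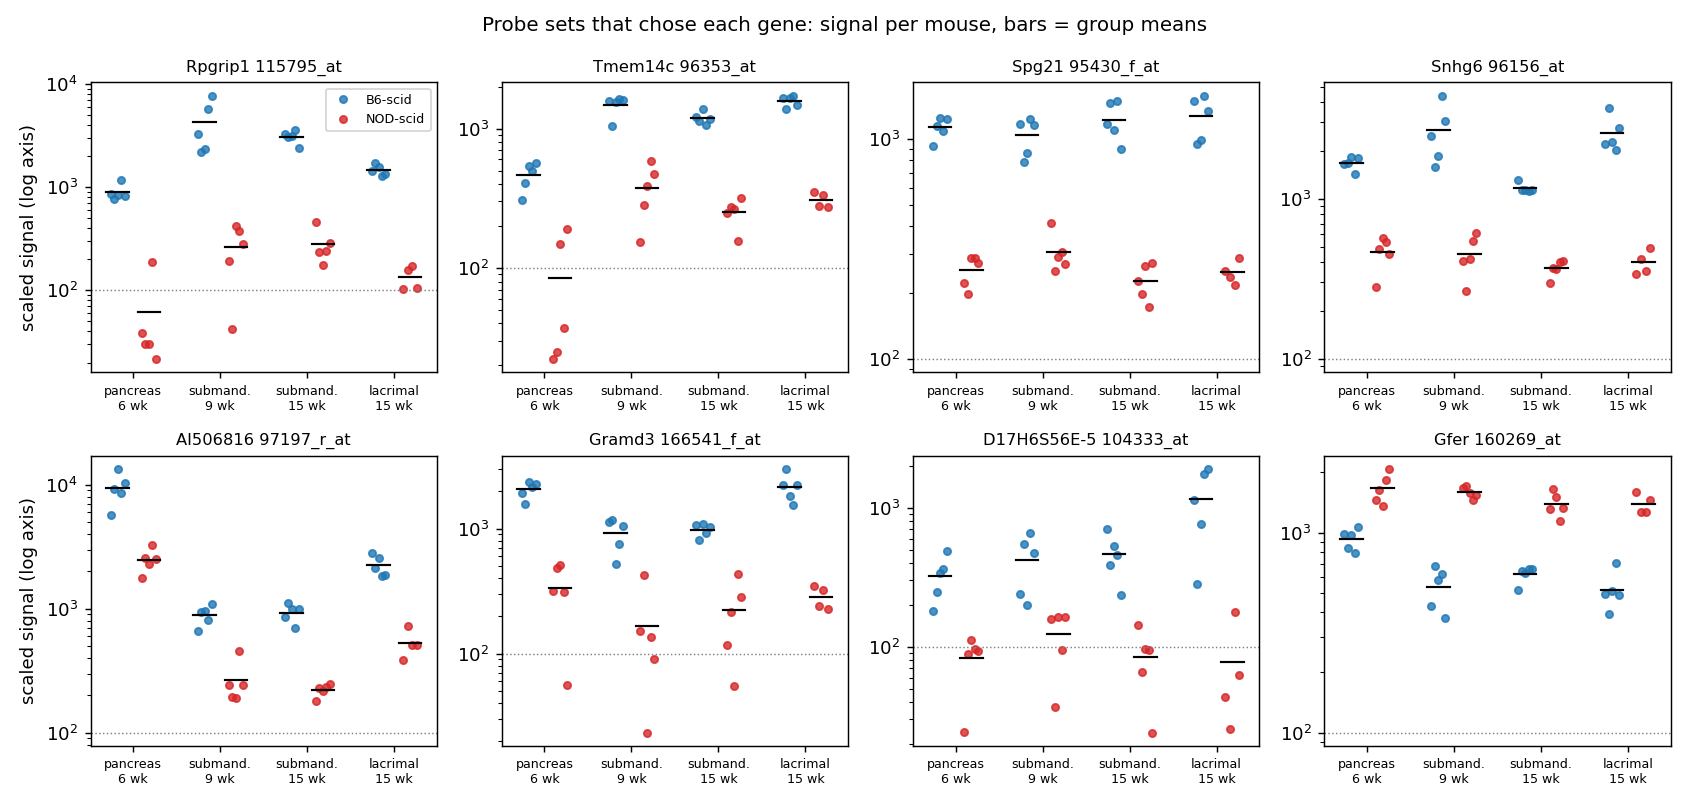
Scaled signal (log axis) of each choosing probe set in every gland sample, by gland and age, with B6-scid in blue and NOD-scid in red; bars are group means and the dotted line is a signal of 100. In all 8 panels and all 4 comparisons the 2 strains do not overlap, with NOD-scid lower in 7 panels and higher for Gfer.

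Rpgrip1, the ciliary scaffold, had the widest strain difference of the 8 in every comparison but lacrimal gland. Its probe set 115795_at gave pancreas signals of 867, 763, 843, 1163 and 818 in B6-scid and 38.9, 29.9, 30.5, 190.2 and 21.7 in NOD-scid mice. At 9 weeks the submandibular signals were 3300.4, 2169.8, 2353, 5786 and 7737 in B6-scid and 191, 42.0, 423, 373 and 279 in NOD-scid mice. In pancreas 4 of the 5 NOD-scid values lay under 100, where B6-scid read at least 763. At 15 weeks the submandibular signals were 3307, 3067, 3102, 3595 and 2373 in B6-scid and 465, 235, 175, 241 and 289.9 in NOD-scid mice. Lacrimal signals were 1448, 1701, 1561, 1289 and 1333 in B6-scid and 104, 156, 174 and 106 in NOD-scid mice. The differences were -3.51 (SE 0.36) in pancreas, -3.94 (SE 0.43) and -3.37 (SE 0.43) in submandibular gland at 9 and 15 weeks and -3.18 (SE 0.21) in lacrimal gland. NOD-scid replicate 4 of pancreas, the highest of its group, was still below every B6-scid mouse.

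None of the 3 other Rpgrip1 probe sets was called between the strains. Probe set 114825_at, on the same design B, averaged 320.5 ± 180.5 in B6-scid and 313 ± 136 in NOD-scid pancreas, and 332 ± 33.5 and 332 ± 35.0 in lacrimal gland (SD, n = 5, 5, 5 and 4). Its differences were 0.08 (SE 0.51), -0.25 (SE 0.38), 0.59 (SE 0.38) and 0.00 (SE 0.19) in pancreas, submandibular gland at 9 and 15 weeks and lacrimal gland, with adjusted p-values of limma from 0.874 to 0.999. In lacrimal gland its 95% interval was -0.41 to 0.41, which does not reach the -3.18 of 115795_at. On design C, 168260_at had -1.25 (SE 0.69) in pancreas and 1.10 (SE 0.51) in lacrimal gland, where its interval was -0.03 to 2.23. 168261_at reached a signal of 100 in 7 of 39 samples and was tested in the submandibular fits alone, at -0.11 (SE 0.61) and 0.42 (SE 0.61). In lacrimal gland, untested, its strains did not overlap (background 7.09% of tested probe sets), with NOD-scid mice higher, the opposite of 115795_at. It averaged 14.5 ± 1.3 in B6-scid and 110 ± 102 in NOD-scid mice (SD, n = 5 and 4), levels near or under 100.

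**Figure D2:**
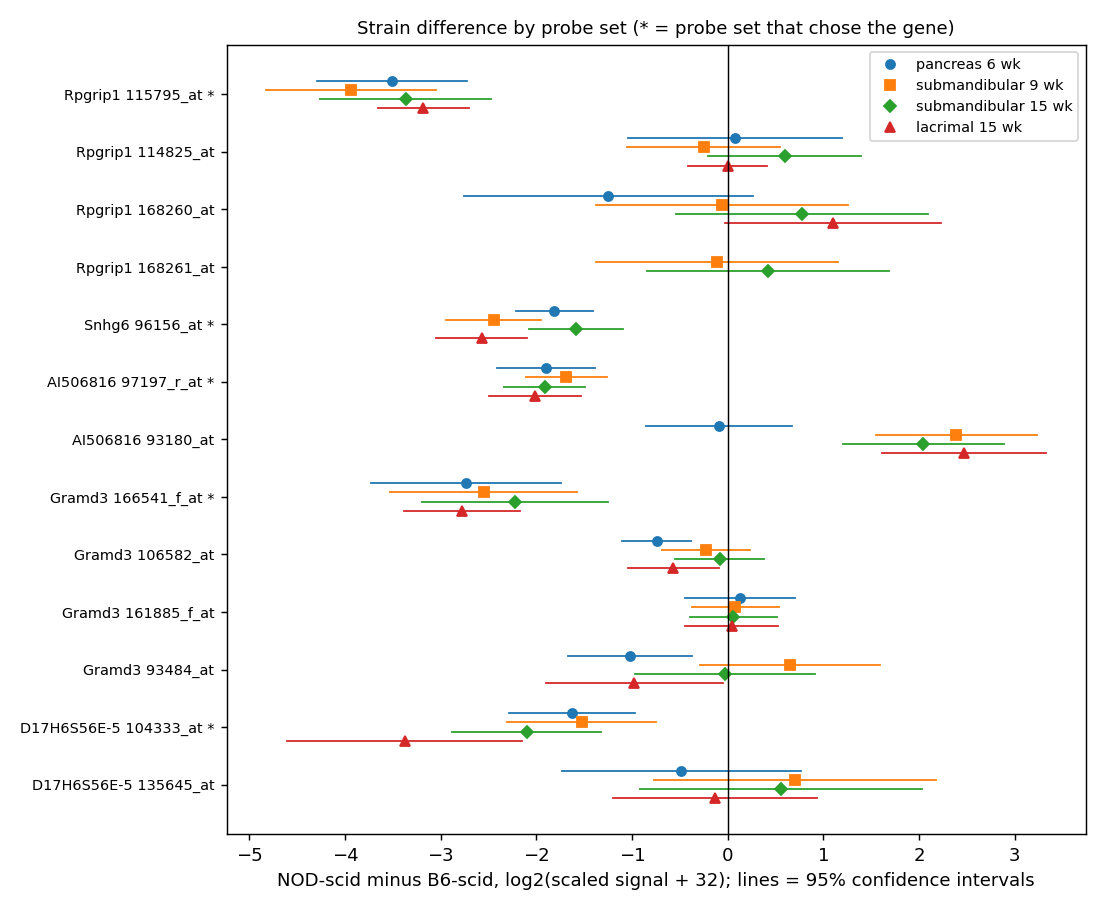
NOD-scid minus B6-scid difference (log2(scaled signal + 32)) with 95% confidence interval for each tested probe set of the 5 genes with more than 1; colours and markers are the glands and an asterisk marks the choosing probe set. The choosing probe sets lie at -1.53 or below, most others span 0, and AI506816 93180_at lies above 2 in 3 comparisons and at -0.09 in pancreas.

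AI506816 was the 1 gene whose probe sets were called in opposite directions. The choosing probe set, 97197_r_at, gave pancreas signals of 5749, 9211, 13358, 8662 and 10408 in B6-scid and 1772, 2548, 2309.6, 3243 and 2509 in NOD-scid mice. Submandibular signals at 9 weeks were 665, 939, 967, 808 and 1092 in B6-scid and 243, 193, 189, 454 and 244 in NOD-scid mice. At both ages and in every gland, NOD-scid mice had lower values. At 15 weeks they were 857, 1115, 987, 697 and 1003 in B6-scid and 180.1, 231, 216, 234 and 248 in NOD-scid mice. In lacrimal gland 97197_r_at read 2798, 2119, 2584, 1824 and 1866 in B6-scid and 389, 727, 512 and 507 in NOD-scid mice. Its differences were -1.90 (SE 0.23) in pancreas, -1.69 (SE 0.20) and -1.91 (SE 0.20) in submandibular gland at 9 and 15 weeks and -2.02 (SE 0.22) in lacrimal gland. The 4 differences lay within 0.33 of each other, in glands whose B6-scid means ranged over 10.6-fold.

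The other AI506816 probe set, 93180_at on the same design A, was higher in NOD-scid mice in 3 of 4 comparisons. In pancreas it read 311, 327, 171, 112 and 249 in B6-scid and 98.8, 264, 216, 148 and 401 in NOD-scid mice, which overlap widely. Submandibular signals at 9 weeks were 137, 26.0, 43.8, 16.6 and 33.1 in B6-scid and 399, 204, 513, 372 and 379 in NOD-scid mice, with no overlap. At 15 weeks they were 82.9, 31.2, 106, 24.5 and 109.7 in B6-scid and 438, 578, 542, 408 and 100.2 in NOD-scid mice, and the lowest NOD-scid value fell among those of B6-scid. Lacrimal values of 93180_at were 59.7, 186, 29.3, 28.2 and 37.6 in B6-scid and 524, 564, 506 and 279.7 in NOD-scid mice, again with no overlap. In limma it was called higher at 9 weeks by 2.39 (SE 0.40), adjusted p = 0.00281, at 15 weeks by 2.04 (SE 0.40), adjusted p = 0.0139, and in lacrimal gland by 2.47 (SE 0.39), adjusted p = 0.0167. In pancreas it was not called, at -0.09 (SE 0.35), with a 95% interval of -0.85 to 0.67. A signal of 100 was reached by 1 of 5 B6-scid mice at 9 weeks, 2 of 5 at 15 weeks and 1 of 5 in lacrimal gland. All NOD-scid mice of these groups reached it, so 93180_at entered these tests mainly through the strain where it was high. With no filter, the adjusted p-values of limma were 0.00315 at 9 weeks, 0.0157 at 15 weeks and 0.0226 in lacrimal gland. The call at 9 weeks ended without the 9-week samples numbered 4 and 5 (2.07, adjusted p = 0.0969), that at 15 weeks without each of B6-scid replicates 2 and 4 (0.0588 and 0.0569) and NOD-scid replicates 2 and 3 (0.0555 and 0.0523) of that age, and that in lacrimal gland without each of NOD-scid replicates 2 and 3 (0.0544 and 0.0556) and with the replicate number as a block (0.0840). Leaving out the 9-week samples was chosen after seeing the data. Without NOD-scid lacrimal replicate 4, which stands apart in the summed submandibular markers, the lacrimal difference was 2.69 (adjusted p = 0.0244 in limma). Without B6-scid lacrimal replicates 2 and 3 it was 2.74 (0.00929).

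The strain difference of 93180_at in pancreas differed from the mean of the other 3 comparisons by -2.39 (SE 0.47), adjusted p = 0.00494, in 1 limma fit of 39 samples (background 0.506% of 34418 probe sets), a contrast added after its values were seen. For 97197_r_at the same contrast gave -0.02 (SE 0.25). In B6-scid mice both probe sets were highest in pancreas. Over the 39 samples, the deviations of both from their group means had a Pearson r of -0.054 (permutation p = 0.738, adjusted 0.951) and a Spearman rho of -0.025 (permutation p = 0.889, adjusted 0.889).

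**Figure D3:**
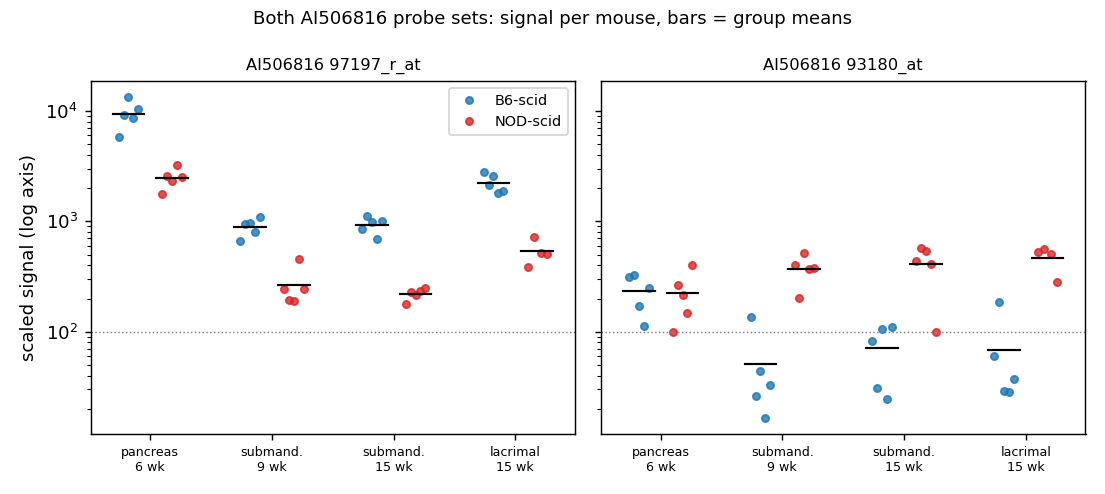
Scaled signal (log axis) of both AI506816 probe sets in every gland sample, B6-scid in blue and NOD-scid in red, with bars at group means and a dotted line at 100. On the left 97197_r_at is lower in NOD-scid in all 4 groups; on the right 93180_at is higher in NOD-scid outside pancreas and overlaps widely in pancreas.

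Tmem14c, the mitochondrial transporter of heme synthesis, was read by 1 probe set, 96353_at, so its probe sets cannot be compared. Its pancreas signals were 305, 406, 537, 496 and 565 in B6-scid and 22.3, 25.1, 148, 37.0 and 191 in NOD-scid mice. Submandibular values at 9 weeks were 1571, 1041, 1551, 1631 and 1615 in B6-scid and 154, 281, 390.3, 581 and 470.5 in NOD-scid mice. Pancreas was the gland with the lowest level in both strains, 3 of 5 NOD-scid mice being under 100. Values at 15 weeks were 1207, 1134, 1385, 1057 and 1181 in B6-scid and 247, 273, 263, 157 and 319.7 in NOD-scid mice. In lacrimal gland Tmem14c read 1661, 1388, 1649, 1726 and 1475 in B6-scid and 352, 276, 333 and 272 in NOD-scid mice. Differences were -2.32 (SE 0.41) in pancreas, -1.99 (SE 0.25) and -2.13 (SE 0.25) in submandibular gland at 9 and 15 weeks and -2.25 (SE 0.15) in lacrimal gland. The 4 differences lay within 0.33 of each other.

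Spg21, the gene of the endosomal protein maspardin, was also read by 1 probe set, 95430_f_at, of the kind that may match several transcripts of a family. Pancreas signals of Spg21 were 930.0, 1149, 1241, 1085 and 1229 in B6-scid and 222, 198, 287, 286 and 271 in NOD-scid mice. At 9 weeks Spg21 read 1162, 784, 866, 1224 and 1153 in B6-scid and 413, 251, 291, 306 and 269.9 in NOD-scid mice. In B6-scid mice the highest group mean of Spg21 was 1.22 times the lowest, and in NOD-scid mice 1.35 times. At 15 weeks Spg21 read 1169.9, 1456, 1100.1, 1487 and 900.4 in B6-scid and 227, 197, 264, 171 and 273 in NOD-scid mice. Lacrimal values of Spg21 were 1484, 948, 982, 1572 and 1343 in B6-scid and 252, 236, 217 and 287 in NOD-scid mice. NOD-scid mice differed by -2.03 (SE 0.15) in pancreas, -1.66 (SE 0.19) and -2.27 (SE 0.19) in submandibular gland at 9 and 15 weeks and -2.19 (SE 0.20) in lacrimal gland.

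Snhg6, the small nucleolar RNA host transcript, was lower in NOD-scid mice on 96156_at. Pancreas values of Snhg6 were 1660.5, 1664, 1825, 1433 and 1793 in B6-scid and 282, 483, 566, 537 and 452 in NOD-scid mice. At 9 weeks Snhg6 read 2472, 1585, 1855, 4418 and 3057 in B6-scid and 408, 264, 418, 546 and 609 in NOD-scid mice. The B6-scid mice of 9 weeks spanned the widest range of any Snhg6 group. At 15 weeks Snhg6 read 1310.5, 1138, 1139, 1122 and 1128 in B6-scid and 299, 368, 364, 404 and 408 in NOD-scid mice. Lacrimal values of Snhg6 were 2194, 3713, 2270.2, 2013 and 2752 in B6-scid and 338, 423, 355 and 489.7 in NOD-scid mice. Its strain differences were -1.81 (SE 0.18) in pancreas, -2.45 (SE 0.24) and -1.59 (SE 0.24) in submandibular gland at 9 and 15 weeks and -2.57 (SE 0.21) in lacrimal gland. In NOD-scid mice the 4 group means lay within 1.26-fold. The other Snhg6 probe set, 161635_f_at, reached 100 in 8 of 39 samples and was not tested. It averaged 86.9 ± 66.3 and 51.3 ± 27.6 in B6-scid and NOD-scid pancreas and 114 ± 69.8 and 66.0 ± 40.4 in lacrimal gland (SD, n = 5, 5, 5 and 4), and the strains overlapped in all 4 comparisons.

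Gramd3, the GRAM domain gene, was chosen on 166541_f_at of design C. Its pancreas signals on it were 1949, 1591, 2385, 2152 and 2296 in B6-scid and 319, 484, 509.8, 314 and 56.2 in NOD-scid mice. Gramd3 values at 9 weeks were 1139, 1169.8, 526, 756 and 1050.1 in B6-scid and 153, 423, 23.4, 137 and 90.5 in NOD-scid mice. NOD-scid mice of 9 weeks varied from 23.4 to 423 and still stayed below the lowest B6-scid mouse. Gramd3 values at 15 weeks were 1068, 808, 1091, 928 and 1034 in B6-scid and 117, 216, 55.1, 434 and 287 in NOD-scid mice. In lacrimal gland 166541_f_at read 2241, 2995, 1813, 1539 and 2229 in B6-scid and 348, 242, 323 and 227 in NOD-scid mice. These were differences of -2.74 (SE 0.46) in pancreas, -2.55 (SE 0.47) and -2.22 (SE 0.47) in submandibular gland at 9 and 15 weeks and -2.78 (SE 0.27) in lacrimal gland.

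None of the 3 other Gramd3 probe sets was called in any strain comparison. Probe set 106582_at, which reached 100 in all 39 samples, averaged 2533 ± 406 in B6-scid and 1489 ± 92.6 in NOD-scid pancreas and 2037 ± 390.0 and 1353 ± 184 in lacrimal gland (SD, n = 5, 5, 5 and 4), without overlap in either. Its differences were -0.74 (SE 0.16) in pancreas (adjusted p = 0.085 in limma), -0.23 (SE 0.22) and -0.09 (SE 0.22) in submandibular gland and -0.57 (SE 0.21) in lacrimal gland (adjusted p = 0.274). In 1 limma fit of all 39 samples its pancreas difference was called (adjusted p = 0.0286). Its direction matched that of 166541_f_at while its size was smaller, and its pancreas interval was -1.10 to -0.38. 93484_at had -1.02 (SE 0.29) in pancreas, where the strains did not overlap, 0.65 (SE 0.45) at 9 weeks and -0.98 (SE 0.42) in lacrimal gland, with adjusted p-values of at least 0.203. 161885_f_at stayed between 0.04 and 0.12 in all 4, and its intervals over the 4 reached from -0.45 to 0.70.

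D17H6S56E-5, the transcript of the MHC class III region, was lower in NOD-scid mice on 104333_at. Its pancreas values were 180.5, 246, 337, 362 and 489 in B6-scid and 24.5, 88.8, 111, 96.4 and 92.8 in NOD-scid mice. D17H6S56E-5 values at 9 weeks were 238, 546, 200.1, 661 and 469 in B6-scid and 157, 36.7, 164, 95.1 and 164 in NOD-scid mice. At 9 weeks the lowest B6-scid value, 200.1, was close to the highest NOD-scid value, 164. D17H6S56E-5 values at 15 weeks were 708, 386, 529.7, 460.3 and 235 in B6-scid and 144, 65.4, 95.8, 94.8 and 24.1 in NOD-scid mice. In lacrimal gland 104333_at read 1143, 281, 769, 1741 and 1892 in B6-scid and 43.6, 25.6, 178 and 62.3 in NOD-scid mice. The resulting differences were -1.63 (SE 0.30) in pancreas, -1.53 (SE 0.37) and -2.10 (SE 0.37) in submandibular gland at 9 and 15 weeks and -3.38 (SE 0.55) in lacrimal gland. In NOD-scid mice only 1 of 4 lacrimal, 1 of 5 pancreas and 1 of 5 submandibular samples of 15 weeks reached a signal of 100, where adding 32 understates the change. Of its other probe sets, 162344_at reached 100 in 1 of 39 samples and was not tested. 135645_at differed by -0.49 (SE 0.58) in pancreas, 0.70 (SE 0.71) and 0.56 (SE 0.71) in submandibular gland and -0.13 (SE 0.48) in lacrimal gland, with adjusted p-values of limma of at least 0.782, and reached 100 in 19 of 39 samples.

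Gfer, the mitochondrial sulfhydryl oxidase, was the 1 gene higher in NOD-scid mice, on its single probe set 160269_at. Pancreas values of Gfer were 987, 832, 975, 794 and 1063 in B6-scid and 1446, 1633, 1361, 1819 and 2071 in NOD-scid mice. At 9 weeks Gfer read 429.7, 678, 577, 619.8 and 375 in B6-scid and 1670.1, 1715, 1576, 1448 and 1542 in NOD-scid mice. In NOD-scid mice the ranges of groups next to each other in level overlapped in every gland. At 15 weeks Gfer read 515, 639, 629, 660.1 and 659 in B6-scid and 1318, 1655, 1501, 1148 and 1325 in NOD-scid mice. Lacrimal values of Gfer were 494, 390.0, 511, 704 and 488 in B6-scid and 1586, 1269, 1265 and 1452 in NOD-scid mice. Gfer differed by 0.81 (SE 0.16) in pancreas, 1.54 (SE 0.16) and 1.12 (SE 0.16) in submandibular gland at 9 and 15 weeks and 1.39 (SE 0.19) in lacrimal gland. In B6-scid mice pancreas stood above the other glands without overlap, and the pancreas difference was the smallest of the 4.

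Over the 5 genes with more than 1 probe set, 8 of the 10 other probe sets were tested in at least 1 strain comparison. In limma, 0 of 7 were called in pancreas (background 0.647%; 2 of 7 at an unadjusted p under 0.05), 1 of 8 at 9 weeks (1.12%), 1 of 8 at 15 weeks (0.594%) and 1 of 7 in lacrimal gland (1.19%), each time AI506816 93180_at. Uncalled, Gramd3 106582_at and 93484_at were lower in NOD-scid pancreas (unadjusted p = 8.3e-04 and 0.00516 in limma) and lacrimal gland (0.0233 and 0.0402), the direction of their choosing probe set. At 9 weeks 93484_at lay the other way (0.65, unadjusted p = 0.166). Counted as probe sets, 0 of the 8 tested others were called in the direction of the choosing probe set in any comparison, 1 in the opposite direction and 7 in neither. These 8 belong to Rpgrip1, AI506816, Gramd3 and D17H6S56E-5. The other probe set of Snhg6 was not tested, and Tmem14c, Spg21 and Gfer have none. Among the other genes called in all 4 comparisons, 7 had further tested probe sets, and 3 of their 16 were called in the same direction, 0 in the opposite and 13 in neither. No test of that difference was made. The deviations of 17 pairs of probe sets of 1 gene from their group means were correlated over the 39 samples, which share arrays within a design, and 0 of 17 passed an adjusted p of 0.05 by permutation. The lowest adjusted p was 0.222 (162344_at with 135645_at of D17H6S56E-5, Pearson r = 0.387, permutation p = 0.0130; Spearman rho = 0.258, permutation p = 0.126; r = 0.310 without the 2 samples farthest out).

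Comparisons within a strain were not used by the rule and were tested. They share samples with the strain comparisons that chose the choosing probe sets. For those probe sets the p-values are therefore not independent of the choice. Lacrimal gland was set against submandibular gland at 15 weeks within each strain. In B6-scid mice 4 of 16 member probe sets were called (background 11.4%), 3 higher (5.25%) and 1 lower (6.14%). AI506816 97197_r_at was higher in lacrimal gland by 1.23 (SE 0.18), adjusted p = 1.2e-04 in limma, and Snhg6 96156_at by 1.09 (SE 0.16), adjusted p = 1.7e-04. Rpgrip1 115795_at was lower by 1.05 (SE 0.22), adjusted p = 0.00391. Gramd3 166541_f_at was higher by 1.08 (SE 0.35) at an adjusted p of 0.0499, and this call ended without each of 16 of the 19 samples, up to 0.105 without B6-scid lacrimal replicate 2, and without B6-scid lacrimal replicates 2 and 3 together (0.151). It also ended with a pseudocount of 1 (0.0956), no filter (0.0543), quantile normalization (0.0654), 1 fit of all 39 samples (0.117) and the replicate number as a block (0.0770). In NOD-scid mice 2 of 16 were called (background 15.2%; 7.15% higher and 8.05% lower), AI506816 97197_r_at higher by 1.13 (SE 0.19), adjusted p = 4.0e-04, while Rpgrip1 115795_at was lower by 0.87 (SE 0.24), adjusted p = 0.0171. The Rpgrip1 calls in both strains ended in 1 fit of all 39 samples (0.0715 in B6-scid and 0.163 in NOD-scid), and that in NOD-scid also ended without NOD-scid lacrimal replicate 1 (0.0557) and without replicate 4 (0.0547).

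AI506816 and Rpgrip1 were thus called in the same direction in both strains. None of the 8 other tested probe sets was called between the glands in either strain. The strain difference itself was compared between lacrimal and submandibular gland at 15 weeks. For the choosing probe sets this sets values the rule used against each other, so it is a description with no test. Lacrimal minus submandibular, the strain difference of Snhg6 96156_at differed by -0.99 (SE 0.24) and that of D17H6S56E-5 104333_at by -1.27 (SE 0.66). Of the 8 other tested probe sets, 0 were called in limma (background 0.328%; 0 at an unadjusted p under 0.05).

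Between 9 and 15 weeks in submandibular gland, Snhg6 96156_at was called lower at 15 weeks in B6-scid mice, with a difference of -1.08 (SE 0.24), adjusted p = 0.0285 in limma, at 1168 ± 80.1 against 2677 ± 1127 (SD, n = 5 each). It was 1 of 16 member probe sets called (background 1.22%; 0.445% lower). In NOD-scid mice 0 of 16 were called (background 0.977%; 0 at an unadjusted p under 0.05), and Snhg6 moved by -0.22 (SE 0.24). The Snhg6 call ended without each of B6-scid replicates 4 and 5 of 9 weeks (0.0591 and 0.0558) and replicates 2, 3, 4 and 5 of 15 weeks (0.0627, 0.0711, 0.0733 and 0.0574), and without the 9-week samples numbered 4 and 5 of both strains (-0.72, adjusted p = 0.0606). The 3' to 5' signal ratio of Actb, a sign of RNA quality, averaged 2.45 ± 1.16 in B6-scid mice at 9 weeks and 1.68 ± 0.21 at 15 weeks (SD, n = 5 each), and 4 of 5 lacrimal markers were also called lower at 15 weeks in B6-scid mice, as were 3 of 5 in NOD-scid mice. Their part in the Snhg6 difference was not tested. The same B6-scid samples of 15 weeks are the lower side of the gland difference of Snhg6. Between the ages, 15 minus 9 weeks, the strain difference of Snhg6 96156_at differed by 0.86 (SE 0.34) and that of Spg21 by -0.61 (SE 0.26), again as descriptions. Of the 8 other tested probe sets, 0 were called by this contrast in limma (background 0%; 0 at an unadjusted p under 0.05).

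**Figure D4:**
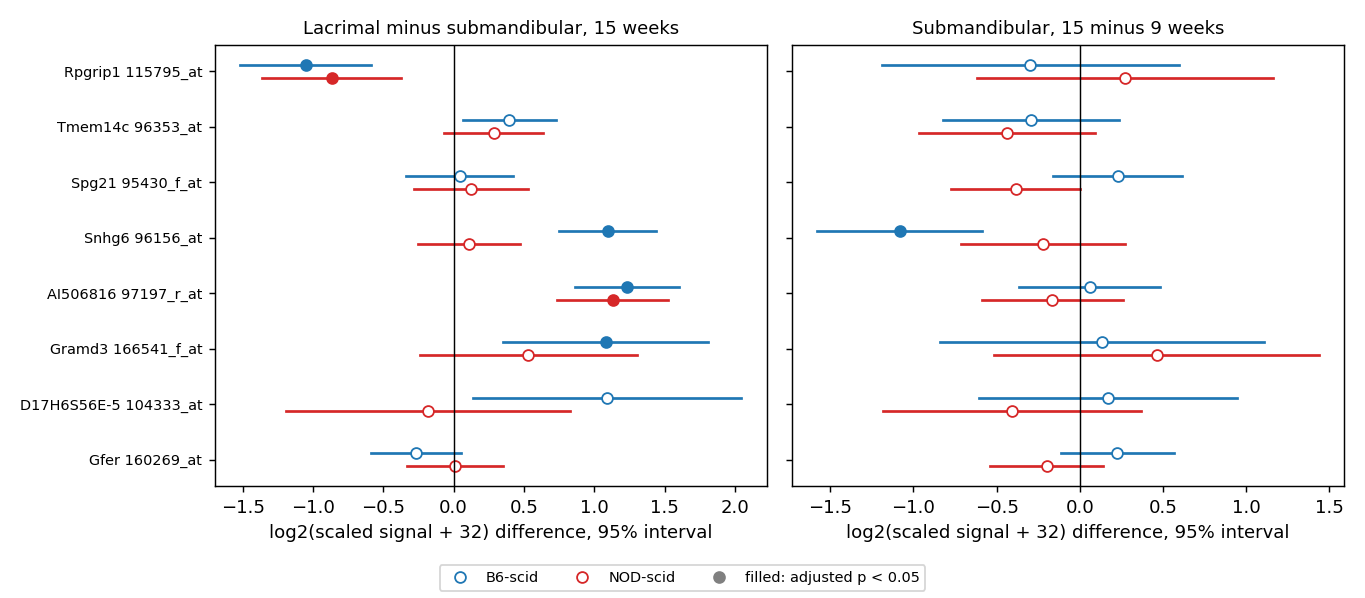
Left, lacrimal minus submandibular difference at 15 weeks, and right, 15 minus 9 weeks in submandibular gland, for the choosing probe sets in log2(scaled signal + 32) with 95% confidence intervals; blue is B6-scid, red NOD-scid, and filled points have an adjusted p under 0.05. Rpgrip1 and AI506816 are filled in both strains on the left, and Snhg6 in B6-scid is the only filled point on the right.

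Within a strain, the choosing probe sets differed in how their levels were ordered over the glands, which is given as a description. Pancreas was taken only at 6 weeks, so its place in an order cannot be told apart from that of age. In B6-scid mice Rpgrip1 was highest in submandibular gland at 9 weeks, then 15 weeks, lacrimal gland and pancreas, a 4.79-fold span in which only the ranges of both submandibular groups overlapped. AI506816 97197_r_at was highest in pancreas in both strains, without overlap with the next group, and spanned 10.6-fold in B6-scid and 11.2-fold in NOD-scid mice. Snhg6 in B6-scid mice ran from submandibular gland at 9 weeks and lacrimal gland, which overlapped, down to pancreas and then submandibular gland at 15 weeks, both without overlap with the group before, over 2.29-fold. Tmem14c was lowest in pancreas, apart from the rest in B6-scid mice (3.42-fold) and overlapping the next group in NOD-scid mice (4.44-fold). Gramd3 166541_f_at in B6-scid mice was higher in lacrimal gland and pancreas, which overlapped, than in both submandibular groups, without overlap. For D17H6S56E-5 and Spg21 all neighbours in the order overlapped in both strains, with spans of 3.61-fold and 1.22-fold in B6-scid mice.

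Genes related to each member by function or position were also followed. Lists of 1 probe set per gene covered cilium transition zone genes (for Rpgrip1), heme synthesis and transport (Tmem14c), hereditary spastic paraplegia and endosome genes (Spg21), small nucleolar RNA hosts (Snhg6), GRAM domain genes (Gramd3), mitochondrial intermembrane import (Gfer) and the MHC class III region (D17H6S56E-5). The background with 1 probe set per gene was 0.92%, 1.4%, 0.745% and 1.44% in pancreas, submandibular gland at 9 and 15 weeks and lacrimal gland. No gene of the cilium, paraplegia, small nucleolar RNA host or import lists was called in any comparison, of up to 15, 17, 14 and 18 tested. In the heme list the synthesis enzyme Alad was called higher at 9 weeks (0.87, SE 0.21, adjusted p = 0.0430), 1 of 17. Of 11 GRAM domain genes, the lipid phosphatase Mtm1 was called higher in pancreas (3.14, SE 0.21, adjusted p = 3.8e-05), and of the class III genes Vars, a tRNA synthetase, was called lower in pancreas, 1 of 37 (-1.79, SE 0.24, adjusted p = 0.00677), and Notch4 higher in lacrimal gland, 1 of 34 (4.70, SE 0.41, adjusted p = 6.4e-04). No list was tested against that background, and nothing particular to a list is read from single calls. List medians lay between -0.34 (small nucleolar RNA hosts) and 0.34 (heme), both in the lacrimal comparison, where the median of all genes was 0.02.

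In the RefSeq order, the 3 nearest tested genes on each side of a member were followed. Of their probe sets, 1 of 80 was called in pancreas, 1 of 87 at 9 weeks, 0 of 87 at 15 weeks and 0 of 74 in lacrimal gland, against 0.647%, 1.12%, 0.594% and 1.19% of all probe sets, so nothing is read from these counts. The first was Vars, the next tested gene after D17H6S56E-5, and the second was Zfp598, 2 tested genes before Gfer (0.77, SE 0.18, adjusted p = 0.0421). Vars 97894_at lay lower in the other comparisons as well, without passing (-0.54, -0.70 and -1.66, the last at an adjusted p of 0.0779). No neighbour was called in more than 1 comparison.

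The signals most like each member over the 39 samples, by Pearson r of log2 values, were as follows. All samples of both strains enter, so a shared strain difference raises r, and the values are descriptions. The probe set annotated to Mir686 was among the 2 nearest for Spg21 (r = 0.919), Rpgrip1 (0.893), Tmem14c (0.872) and D17H6S56E-5 (0.857), and that probe set was itself called in all 4 comparisons. Agpat5 was near Spg21 (0.901) and D17H6S56E-5 (0.833). Bod1 was near Rpgrip1 (0.879) and Ctss near Tmem14c (0.877). Snhg6 was nearest to Epb41l4aos (0.888) and Rab6b (0.870), AI506816 97197_r_at to Sec11c (0.870) and Nup210 (0.863), and Gramd3 to Ly6e (0.845) and Ctsc (0.843). Gfer, the member with the opposite direction, was nearest to Fbp1 (0.795) and Eny2 (0.795).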

How the data were processed

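Intensities (linear MAS5 signals) were deposited by the authors for 39 gland samples on 3 Affymetrix MG-U74v2 designs; MAS5 is named in the submitters' processing notes, with no version, and no genome build is given in the sources used here. Per the labels' protocols, biotin-labelled cRNA was made from total RNA of Trizol-homogenised glands. The 2% trimmed mean of the deposited intensities was 2500.5 to 2501.7 on all 117 arrays, so arrays had been scaled before deposit. Arrays have no counts, and the number of mice limits the precision.

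Each array was set to a trimmed mean of 500, and limma 3.58.1 (R 4.3.3; functions lmFit, then eBayes) was fitted to log2 of signal + 32, in fits of the groups of 1 gland (submandibular ages together) or of the 15-week samples. Probe sets needed a signal of at least 100 on at least 4 arrays. P-values were adjusted over all 3 designs by Benjamini-Hochberg. The prior spread was estimated per design; this was settled after the data were seen, because it gives the counts of the earlier results, and 1 prior over the stacked designs is the added alternative. The members, lists and markers were chosen with earlier results of these data known. Each listed gene was represented by 1 probe set, the one with the highest mean on the first design (in the order A, B, C) that tested it. Symbols came from the platform annotation, updated through RefSeq GRCm38.p6: of 36701 probe sets that are not controls, 29131 had 1 symbol, 724 several and 6846 none, and 29044 matched. All 18 member probe sets are accounted for. Named genes were list members or neighbours called in at least 2 strain comparisons (none were), the 2 most alike genes per member and the 3 next by smallest difference; single calls are named after their values were seen. Probe set pairs were correlated in Python 3.11.15 with numpy 2.4.6 and scipy 1.17.1, with 100000 permutations within groups, 2-sided.

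Same-numbered samples were checked for pairing. Their deviations from group means correlated at -0.026 to 0.085, no pair over 0.1, and the main fits used no pairing. At 9 weeks the mean r was 0.046 for same numbers and -0.012 for other numbers, and 4 of 5 pairs matched their own number best. In lacrimal gland 3 of 4 did (0.019 against -0.005), and in each other set 1 or 2 did. Whether samples of 1 number share a factor was not tested. Arrays of a design correlated at no more than 0.963, so none was taken as a duplicate. The fit was tested on simulated data: of 100 probe sets changed by 2 on the log2 scale, 73% were recovered in pancreas, 90% and 79% in submandibular gland at 9 and 15 weeks and 65% in lacrimal gland, and of 100 changed by 1, 10%, 23%, 24% and 10%. The changed probe sets were drawn from brighter ones only, with normal noise of 1 spread per probe set over all groups. These rates therefore do not carry over to probe sets of low signal, such as many of the members' other probe sets. Alternatives were pseudocounts of 1 and 100, no filter, quantile normalization, 1 fit of 39 samples, the replicate block, each sample left out, and 2 groups of samples left out after seeing the data.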

Additional observations from a re-analysis of the deposited data

Results flagged for a closer look

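The strain difference of AI506816 93180_at in pancreas differed from the mean of those in the other 3 comparisons by -2.39 on the log2 scale (SE 0.47, adjusted p = 0.00494 in 1 limma fit of 39 samples), as described in the results. The B6-scid means were 234 in pancreas and 51.2 to 70.9 elsewhere, and the NOD-scid means 226 in pancreas and 374 to 469 elsewhere.

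In 17 of 144 groups of 4 or 5 samples, 1 sample lay far from the rest, its gap to the nearest other value exceeding Dixon's 95% limit as a share of the group's range of log2 values. Chance flags about 1 in 20 groups, here 7.2. Rpgrip1 114825_at was lowest in NOD-scid pancreas 6 weeks replicate 4, at 96.1 against 308 to 468 in the others of the group (gap share 0.716). Rpgrip1 114825_at was lowest in B6-scid submandibular 15 weeks replicate 3, at 76.9 against 241 to 312 in the others of the group (gap share 0.798). Rpgrip1 115795_at was highest in NOD-scid pancreas 6 weeks replicate 4, at 190.2 against 21.7 to 38.9 in the others of the group (gap share 0.804). Tmem14c 96353_at was lowest in B6-scid submandibular 9 weeks replicate 2, at 1041 against 1551 to 1631 in the others of the group (gap share 0.888). Snhg6 161635_f_at was lowest in B6-scid submandibular 15 weeks replicate 1, at 3.18 against 45.9 to 71.5 in the others of the group (gap share 0.737). Snhg6 161635_f_at was highest in NOD-scid submandibular 15 weeks replicate 3, at 69.5 against 10.8 to 22.8 in the others of the group (gap share 0.713). Snhg6 96156_at was highest in B6-scid submandibular 15 weeks replicate 1, at 1310.5 against 1122 to 1139 in the others of the group (gap share 0.902). AI506816 93180_at was lowest in NOD-scid submandibular 15 weeks replicate 5, at 100.2 against 408 to 578 in the others of the group (gap share 0.787). AI506816 93180_at was lowest in NOD-scid lacrimal 15 weeks replicate 4, at 279.7 against 506 to 564 in the others of the group (gap share 0.843). AI506816 97197_r_at was highest in NOD-scid submandibular 9 weeks replicate 4, at 454 against 189 to 244 in the others of the group (gap share 0.719). Gramd3 161885_f_at was lowest in NOD-scid pancreas 6 weeks replicate 1, at 95.3 against 217 to 259 in the others of the group (gap share 0.81). Gramd3 106582_at was lowest in B6-scid submandibular 9 weeks replicate 3, at 1108 against 1552 to 1739 in the others of the group (gap share 0.746). Gramd3 166541_f_at was lowest in NOD-scid pancreas 6 weeks replicate 5, at 56.2 against 314 to 509.8 in the others of the group (gap share 0.754). D17H6S56E-5 104333_at was lowest in NOD-scid pancreas 6 weeks replicate 1, at 24.5 against 88.8 to 111 in the others of the group (gap share 0.818). D17H6S56E-5 162344_at was highest in B6-scid pancreas 6 weeks replicate 2, at 119 against 11.4 to 23.9 in the others of the group (gap share 0.797). D17H6S56E-5 162344_at was highest in NOD-scid submandibular 9 weeks replicate 1, at 61.8 against 5.16 to 13.5 in the others of the group (gap share 0.782). Gfer 160269_at was lowest in B6-scid submandibular 15 weeks replicate 1, at 515 against 629 to 660.1 in the others of the group (gap share 0.805).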

How the results depend on the processing

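Over the tested results and 11 counts of calls, no alternative turned a direction. In 1 fit of 39 samples, the other probe sets called in pancreas were 1 in place of 0, the member probe sets called between glands 2 in place of 4 in B6-scid and 1 in place of 2 in NOD-scid. With the replicate number as a block, the other probe sets called in lacrimal gland were 0 in place of 1 (AI506816 93180_at, 2.39, adjusted p = 0.0840 in limma). The member probe sets called between glands in B6-scid were 3 in place of 4, and the other counts did not change. Without the 9-week samples numbered 4 and 5, an alternative chosen after seeing the data, the other probe sets called at 9 weeks and the member probe sets called by age in B6-scid were 0 each in place of 1. Pseudocounts of 1 and 100, no filter, quantile normalization, the stacked prior and leaving out B6-scid lacrimal samples 2 and 3 kept every such count within 1.5 times. The cause was not tested.

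With each sample left out in turn, the other probe sets called ranged from 0 to 1 at 15 weeks and in lacrimal gland, and the member probe sets called from 0 to 1 by age in B6-scid, from 3 to 4 by gland in B6-scid and from 1 to 2 by gland in NOD-scid; the other counts did not change. The replicate number, 5 mice or fewer a group, limits all of these.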
